A study of Mus musculus with 20 samples.

Results

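The comparison described here sets conventional dendritic cells (cDC) against the cultured common dendritic cell progenitors (CDP) from which dendritic cells develop. It rests on 4 of the 20 arrays of the series, 2 per cell type. Both cell types came from bone marrow of C57BL/6 mice. The CDP had been amplified in culture from the marrow, and the cDC were differentiated from amplified progenitors, so both are cultured populations. The other one-cycle arrays hold multipotent progenitors (MPP) and plasmacytoid dendritic cells (pDC), 2 arrays each, made in the same way from 1000 ng of RNA. Progenitors isolated directly from marrow (in vivo CDP, 2 arrays, 50 ng of RNA) and amplified CDP left untreated or treated with TGF-β1 for 4, 8, 12 or 24 hours (2 arrays per time, 250 ng) were labelled with another kit, so no test was made between their levels and those of the one-cycle arrays. The series asks, as its title puts the question, whether TGF-β1 speeds the step from CDP to dendritic cell and steers it towards cDC. No label says whether replicates came from separate mice or cultures, so the p-values below measure the spread between these arrays.

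Dendritic cells take up antigen, cut it to peptides and show these to T cells on major histocompatibility complex (MHC) molecules. MHC class II genes are switched on together by the coactivator CIITA, which docks on a complex of DNA-binding factors at a shared promoter module that includes the RFX-bound X box and the NF-Y-bound Y box. Conventional dendritic cells are specialised for this task, and on maturation they add costimulatory ligands, cytokines and the chemokine receptor that leads them to lymph nodes. CDP are dividing marrow cells that give rise to cDC and pDC and still carry traits of early myeloid cells.

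Levels are log2 intensities of the probe set with the highest mean among those of a gene, with a lowest deposited value of 2.25. Values under 5 were read as low, and a fold change against a group that lies under 5 on both arrays is given as a lower bound, computed against 5. Of 18193 genes, 8900 exceeded 5 on at least 2 of the 8 one-cycle arrays and were tested with limma. A gene that exceeded 5 on the cDC arrays alone could be called in no direction but higher in cDC. A gene is called changed where its Benjamini-Hochberg adjusted p lies below 0.05. Called higher in cDC were 1661 genes, 18.7% of those tested, and called lower were 2608, or 29.3%. The changes of at least 2-fold were 1162 rises and 1690 falls. With values under 5 raised to 5, the changes of at least 8-fold were 185 rises and 88 falls. From under 5 on both CDP arrays, 276 of the called genes rose, and 83 of these reached more than 7 on both cDC arrays. In the other direction 347 genes fell to under 5, of which 68 had exceeded 7 on both CDP arrays. The median difference over all tested genes was -0.16. The CDP and cDC arrays did not overlap for 6721 of the 8900 tested genes, among them all 4269 that were called, so a called gene named below is one whose arrays were apart. Replicates of a group correlated at 0.972 for CDP and 0.976 for cDC over these genes, with a typical SD of 0.41 and 0.38. In bulk RNA of this kind, fewer cells of a type and less RNA per cell cannot be told apart.

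**Figure D1:**
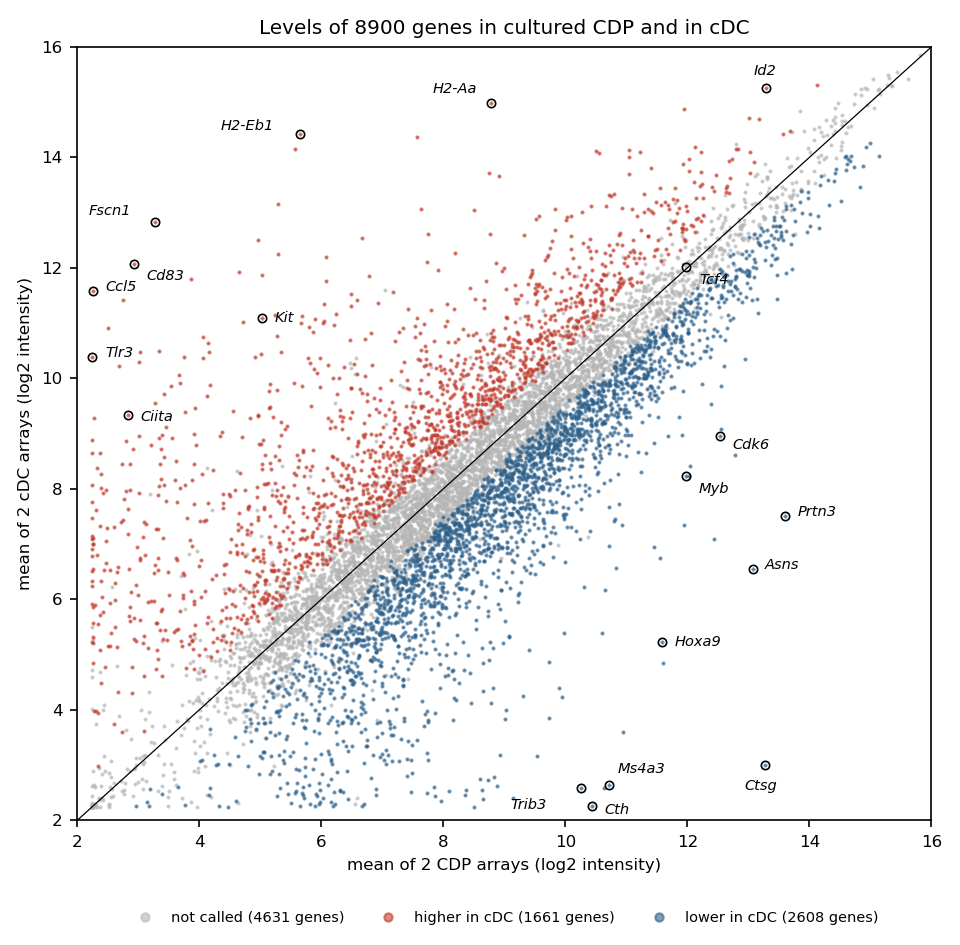
Mean log2 intensity of 8900 tested genes on the 2 CDP arrays (horizontal) and the 2 cDC arrays (vertical), each point a gene coloured by its call, with named genes circled and a line of equality. Red points fan out over the whole upper left, up to genes at the floor in CDP and above 11 in cDC such as Ccl5. The 2608 blue points lie below the line, 1690 of them by at least 2-fold.

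MHC class II genes were among the largest rises. All 14 members of the list of class II chains, their loading factors and their regulators were higher in cDC, with a median difference of 5.25. The promoters of 3 class II chains that rose are shown as the genomic sequence of the 150 bases before the start of transcription (RefSeq, GRCm38.p6), with the Y box CTGATTGG in capitals. H2-Aa lies on the minus strand at chr17:34287824-34287973, H2-Eb1 on the plus strand at chr17:34305717-34305866 and H2-Eb2 on the plus strand at chr17:34325525-34325674.
H2-Aa: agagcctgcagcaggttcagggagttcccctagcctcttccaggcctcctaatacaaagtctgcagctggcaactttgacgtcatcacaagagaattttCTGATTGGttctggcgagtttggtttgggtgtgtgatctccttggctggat
H2-Eb1: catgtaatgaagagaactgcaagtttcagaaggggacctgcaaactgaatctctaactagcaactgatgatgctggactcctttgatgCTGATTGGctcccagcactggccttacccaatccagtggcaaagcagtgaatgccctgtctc
H2-Eb2: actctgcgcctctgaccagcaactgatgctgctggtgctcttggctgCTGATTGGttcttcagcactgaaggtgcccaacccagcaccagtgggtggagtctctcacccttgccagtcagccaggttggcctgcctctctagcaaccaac
The box begins 51 bases before the start in H2-Aa, 62 in H2-Eb1 and 103 in H2-Eb2, always on the strand of the gene. Within 250 bases before to 50 after the start, CTGATTGG on either strand occurred in 4 of the 10 class II list genes with a promoter sequence, against 6.75% of the 7334 tested genes and 4.7% of all 27025 genes with one. It also occurred in 9 of 35 DNA replication genes and 6 of 28 mitosis genes, lists whose members were mostly lower in cDC. Of all genes called higher 6.4% held it, and of those called lower 7.65%. H2-Ab1 and Ciita were not matched.

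Among the class II chains, H2-Aa measured 9.61 and 7.94 on the CDP arrays and 14.96 and 15.01 on the cDC arrays, a rise of 6.21 (SE 0.47, adjusted p = 0.00017). H2-Eb1 went from 6.82 and 4.49 to 14.49 and 14.36, and H2-Ab1 from 6.65 and 4.49 to 14.24 and 14.06. Both CDP arrays lay far below both cDC arrays for each chain, yet CDP replicate 1 stood above replicate 2, as it did for all 14 list members, whose mean was 6.98 and 5.81 on the CDP arrays and 11.52 and 11.31 on the cDC arrays. Without CDP replicate 2 the median rise of the list was 4.82, and without CDP replicate 1 it was 5.90, with 12 and 13 members called. H2-Eb2, a chain gene next to H2-Eb1, read 2.50 and 2.46 on the CDP arrays, 7.99 and 6.58 on the cDC arrays and 2.51 and 2.46 on the pDC arrays. This chain was thus near the floor in CDP and pDC alike and was at least 4.87-fold higher in cDC than in CDP (adjusted p = 0.00025).

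The class II helpers and regulators moved in the same direction by unequal amounts. Cd74, the invariant chain that guards the peptide groove, read 8.88 and 6.25 in CDP and 14.36 and 14.38 in cDC (112-fold). H2-DMb2, a subunit of the peptide exchanger H2-DM, rose from 6.00 and 4.56 to 12.48 and 12.02 (125-fold). H2-Ob, a subunit of H2-DO, which restrains H2-DM, rose 43.2-fold, and its partner H2-Oa 33.7-fold, so the exchanger and its restrainer rose side by side. Ciita, the coactivator, had a level of 3.04 and 2.63 in CDP and 9.48 and 9.21 in cDC, a change of at least 20.3-fold (adjusted p = 6.5e-05). The DNA-binding partners that CIITA docks on changed far less, with Rfx5 at 3.19-fold, Rfxank at 1.92-fold and Rfxap at 1.73-fold. The calls of Rfxank and Rfxap were each lost when any of 3 of the 4 arrays was left out. Ifi30, the lysosomal thiol reductase that unfolds antigens, rose 7.23-fold.

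MHC class I presentation shifted less. Of 17 tested members 8 were higher and 1 was lower, with a median difference of 1.04. Tapbp, the tapasin that holds empty class I molecules at the peptide transporter, read 10.44 and 10.15 in CDP and 12.73 and 12.19 in cDC (4.48-fold, adjusted p = 0.00087). Erap1, the aminopeptidase that trims class I peptides, fell 2.04-fold. Most of these calls depended on single arrays, since only 1 member was called higher without cDC replicate 1, 4 without cDC replicate 2, 2 without CDP replicate 2 and 10 without CDP replicate 1. The lysosomal proteases that cut class II antigens and their inhibitors were mixed, with 6 of 14 higher and 2 lower. Cathepsin S (Ctss), which degrades the invariant chain, rose 3.23-fold from levels of 13.53 and 12.51, and cathepsin H (Ctsh) 5.85-fold. Cystatin C (Cst3) rose 7.67-fold, and cystatin F (Cst7) fell 6.91-fold.

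**Figure D2:**
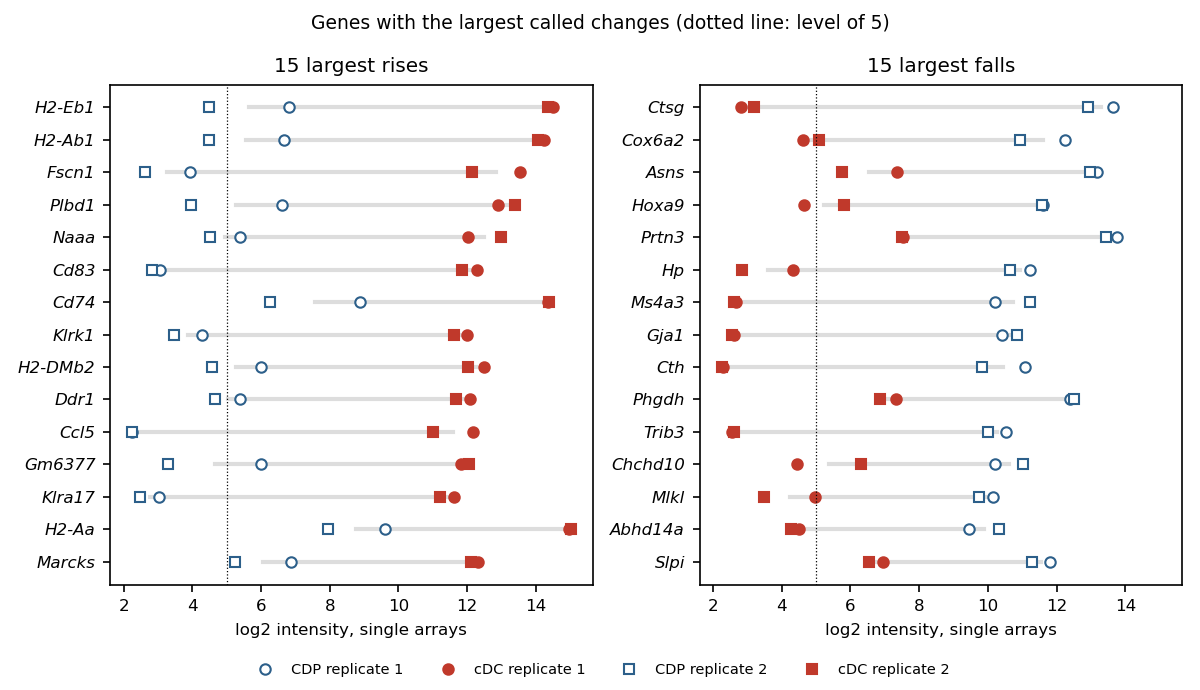
Log2 intensity on single arrays for the 15 largest called rises (left) and the 15 largest called falls (right), with open symbols for CDP, filled symbols for cDC, circles for replicate 1 and squares for replicate 2. Most of the rises start near or under the dotted line at 5. All 30 genes were called, and no called gene had overlapping groups.

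Maturation markers of cDC rose from near the floor. Fscn1, the actin-bundling fascin of dendrites, lay at 3.94 and 2.61 in CDP and at 13.53 and 12.15 in cDC. Cd83, a surface protein that stabilises class II and CD86 on mature dendritic cells, went from 3.05 and 2.82 to 12.30 and 11.86. The pDC arrays read 6.38 and 5.01 for Fscn1 and 2.66 and 4.81 for Cd83, so neither gene approached its cDC level there. Of the costimulatory and checkpoint ligands, 12 of 18 were tested and 10 were higher in cDC (6 of 10 without cDC replicate 1), with a median difference of 2.94. With values under 5 raised to 5 that median was 2.07. Icosl, the ligand of ICOS on T cells, rose 20.6-fold (5.29 and 4.63 against 9.72 and 8.94), and Tnfsf9, the ligand of 4-1BB, 9.95-fold. Cd200, an inhibitory ligand, rose at least 8.06-fold and was higher still in pDC, at 9.22 and 9.37. Cd40 rose 6.91-fold and Cd80 at least 3.9-fold. Cd86, a ligand of CD28, read 9.41 and 7.48 in CDP and 10.75 and 10.03 in cDC and was not called (adjusted p = 0.069).

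The receptors that position the cells changed in both directions. Of 13 tested chemokine and related receptors, 8 were higher and 2 lower, and 5 of 11 were higher without either cDC array. Ccr7, which guides mature dendritic cells to lymph nodes, had levels of 5.44 and 3.67 in CDP and 10.34 and 8.47 in cDC, a rise of 28.8-fold (adjusted p = 0.0022). Ccr6, the receptor for Ccl20, went from 4.00 and 2.79 to 9.10 and 8.86, and Cxcr3 rose at least 9.05-fold. Cxcr4, which retains progenitors in bone marrow, fell from 10.76 and 10.68 to 7.91 and 7.44 (8.25-fold), and S1pr3, a receptor for sphingosine 1-phosphate, from 8.02 and 8.73 to 2.73 and 2.38 (at least 10.4-fold). The first 3 of these genes were higher in cDC and the other 2 were lower. Xcr1, the chemokine receptor of the cross-presenting cDC subset, was at the floor on both CDP arrays and both pDC arrays and at 7.0 and 7.18 in cDC.

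Few chemokines and cytokines were detected, and the members that changed moved in both directions. Of 21 chemokines 8 passed the filter, 4 of them higher and 1 lower. Members that exceeded 5 on the cDC arrays alone, here and among the cytokines, could be called in no direction but higher. Without either cDC array only 5 chemokines still passed the filter, of which limma called 1 lower and the other 4 in neither direction. Ccl5, an attractant of T cells, read 2.25 and 2.26 in CDP and 12.16 and 11.01 in cDC, and Ccl22, which attracts regulatory T cells, 2.25 on both CDP arrays and 8.32 and 6.64 in cDC. Of 24 cytokines, 14 lay under 5 on all 4 arrays, Tnf among them, and of the 10 tested 7 were higher and 1 lower, or 3 of 7 higher without either cDC array. Il1b, which codes for a precursor that inflammasomes activate, rose from 4.97 and 2.52 to 10.44 and 10.34 (at least 42-fold, adjusted p = 0.00053). Il12b and Il6 left the floor with unequal levels on the cDC arrays, 8.00 and 5.56 for the first and 7.44 and 5.66 for the second. Il12a, the partner of Il12b in interleukin 12, moved the opposite way, from 8.98 and 7.90 in CDP to 3.95 and 5.39 in cDC (13.7-fold lower, adjusted p = 0.0032). The pDC arrays kept Il12a at 7.37 and 8.70. Ebi3, whose protein can pair with that of Il12a, rose 3.97-fold from 8.44 and 7.45.

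Among Toll-like receptor genes and C-type lectins more members were higher than lower in cDC, with single members falling. Tlr3, the endosomal sensor of double-stranded RNA, was at 2.25 on both CDP arrays and at 9.95 and 10.83 in cDC (at least 41.9-fold, adjusted p = 3e-05), and it stayed at 2.25 and 3.17 in pDC. Tlr1, which senses bacterial lipopeptides with TLR2, rose 11.8-fold, whereas Cd14, the co-receptor for lipopolysaccharide, fell 3.89-fold, a call lost without CDP replicate 1 or cDC replicate 1. In all 7 of 19 Toll-like receptor genes and adaptors were higher and 2 lower, with 4 of 17 higher without cDC replicate 1. Among 16 tested C-type lectins 8 were higher and 2 lower. Clec4b1 rose 79.3-fold and Cd209a, a mouse relative of DC-SIGN, at least 12.6-fold, from 2.25 on both CDP arrays to 8.37 and 8.93. Clec4e, the Mincle receptor for mycobacterial glycolipid, fell from 10.19 and 9.29 to 4.04 and 5.71 (29.2-fold), and Clec5a, an activating receptor of myeloid cells, from 9.74 and 8.33 to 3.90 and 4.10 (at least 16.4-fold). Klrk1, the activating receptor NKG2D better known from natural killer cells, went from 4.29 and 3.45 to 11.98 and 11.61, and Klra17 from 3.03 and 2.48 to 11.62 and 11.20. Both were also high in pDC, with 9.82 and 8.53 for Klrk1 and 12.85 and 12.39 for Klra17.

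Several of the 15 largest rises belong to no immune list. Plbd1, a lysosomal phospholipase B-like protein, went from 6.62 and 3.95 to 12.91 and 13.41 (234-fold, adjusted p = 0.0018), and Naaa, a lysosomal amidase of fatty acid ethanolamides, from 5.39 and 4.53 to 12.02 and 12.99 (187-fold). Their pDC levels of 3.99 and 6.98 and of 5.08 and 6.33 were close to the CDP levels. Ddr1, a collagen-binding receptor kinase, had levels of 5.40 and 4.65 for CDP, 12.09 and 11.67 for cDC and 13.59 and 13.41 for pDC. For Ddr1 only 2 of 5 tested probe sets were called. Marcks, an actin-binding substrate of protein kinase C, rose 70-fold, and all 5 of its probe sets were called higher. Of 24 tested genes of the cytoskeleton and dendrite formation 14 were higher, with Vasp at 3.56-fold and Cotl1 at 3.28-fold. Adam8, a metalloprotease, rose 43.1-fold, and Rab43, a Golgi GTPase linked to cross-presentation, from 6.49 and 6.59 to 10.04 and 10.47 (13.1-fold). Nr4a3, a nuclear receptor induced by activation, rose at least 10.9-fold (2.72 and 2.74 against 9.20 and 7.71).

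Most tested surface markers of cDC were higher in cDC than in CDP. Itgax, which codes for CD11c, rose from 6.35 and 4.32 to 10.55 and 10.40 (35.3-fold, adjusted p = 0.00069), and Itgae, which codes for CD103, from 3.61 and 3.22 to 9.43 and 10.02. Of 19 surface markers of cDC 14 were tested and 12 were higher. They included markers of both known cDC subsets, Xcr1, Itgae and Cadm1 of the cross-presenting subset and Sirpa (2.90-fold) and Itgam (6.00-fold) of the other. Of the 14 tested markers, 8 were also higher in pDC than in CDP, and 6 were higher in cDC than in pDC. The call of Itgam was lost without CDP replicate 2, cDC replicate 1 or cDC replicate 2. Itgb2, the beta chain that pairs with CD11b and CD11c, rose 7.44-fold, whereas Itgb5 fell 12.4-fold and the laminin receptor chain Itga6 5.93-fold.

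The transcription factors of the dendritic lineage were not switched as a block, since 15 of 24 were higher, 1 was lower and 8 were not called. Irf4 (3.71 and 3.14 against 8.83 and 8.31) and Batf3 (3.46 and 3.04 against 6.31 and 6.66), which drive the 2 cDC subsets, both came from under 5. Zbtb46, a factor of cDC within the blood lineages, stood at 3.89 on both CDP arrays and at 7.84 and 8.48 in cDC, a rise of at least 8.92-fold (adjusted p = 5.5e-05), with 3.89 and 3.91 in pDC. Factors already high in CDP gained modestly, with Id2 rising from 13.64 and 12.95 to 15.23 and 15.30, Irf8 4.16-fold, Bcl6 4.69-fold, Stat3 3.83-fold and Rbpj, the Notch effector, 3.46-fold. Ahr, the aryl hydrocarbon receptor, rose 7.02-fold. Tcf4, the pDC factor E2-2, was at 11.97 and 12.01 in CDP and 11.87 and 12.16 in cDC, a difference of 0.03 (SE 0.18). Spi1, which codes for PU.1, differed by 0.81 (adjusted p = 0.071), and Ikzf1, Runx1, Runx3, Zeb2, Batf and Klf4 were not called either. Nfil3 was the member that fell, from 7.0 and 7.22 to 3.92 and 3.68.

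Of 27 tested growth factor and cytokine receptors 12 were higher, 3 were lower (Csf3r, Il1r1 and Tgfbr1) and 12 were not called. Kit, the stem cell factor receptor, measured 4.75 and 5.32 on the cultured CDP arrays, 11.31 and 10.89 on the cDC arrays, 5.75 and 6.17 on those of pDC and 9.73 and 9.68 on those of MPP. It was thus lower in CDP than in both MPP and cDC on every array. Flt3, the receptor for the cytokine that drives dendritic development, rose 2.52-fold from 9.59 and 9.60. Il7r went from 5.17 and 5.12 to 9.46 and 9.48 and Il10ra from 5.34 and 4.97 to 9.51 and 9.46, each 20.1-fold. Csf1r, the M-CSF receptor, was not called (adjusted p = 0.19), with 12.70 and 12.41 in CDP against 10.64 and 11.59 in cDC. In the NF-kB family 15 of 21 genes were higher and 1 was lower, with 10 higher without CDP replicate 2 or cDC replicate 1 and 7 with no filter on low values. Relb, the subunit of the noncanonical pathway, rose 10.4-fold, its upstream kinase Map3k14 (NIK) 9.33-fold, from 5.06 and 4.45 to 8.25 and 7.70, and the inhibitor Nfkbie 8.47-fold.

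Interferon-stimulated genes rose with a wide split between the cDC arrays. Of 29 tested members 16 were higher, with a median difference of 2.84, or 2.18 with values under 5 raised to 5. Their mean level was 6.18 and 5.84 on the CDP arrays, 10.54 on cDC replicate 1 and 7.82 on cDC replicate 2. Of the 29 members, 28 were higher on cDC replicate 1 than on replicate 2. The pDC arrays showed the same order, with a mean of 9.79 and 7.44 and all 29 higher on replicate 1, whereas the MPP arrays had means of 5.90 and 5.84. Gaps of at least 2 log2 units in favour of cDC replicate 1 were found for 20 of the 29 members (69%) and for 57 of all 8900 genes (0.64%). Without cDC replicate 1 the list had 10 higher and 1 lower of 26 tested and a median of 2.03, and without cDC replicate 2 it had 23 of 29 higher and a median of 3.95. Without CDP replicate 1 or 2 it had 10 or 9 of 29 higher. The labels name no difference between the replicates of a cell type, and what sets them apart was not tested.

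The single genes show the size of this split. Usp18, the protease that removes ISG15, read 3.12 and 2.25 on the CDP arrays and 12.05 and 8.39 on the cDC arrays, and the pDC arrays read 12.12 and 8.13. Mx1, an antiviral GTPase, read 4.71 and 3.57, then 11.55 and 9.75 in cDC (at least 50.2-fold, adjusted p = 0.0015). Ifit3 read 3.34 and 3.19 in CDP and 12.11 and 6.99 in cDC (at least 23.4-fold, adjusted p = 0.021), a call lost without any one array other than cDC replicate 2. All 3 genes were under 5 on both CDP arrays and read higher on cDC replicate 1 than on replicate 2. The sensors Zbp1, at 10.84 and 6.75 in cDC, and Dhx58, at 9.69 and 6.86, had the same order, and their calls were lost under the same omissions. Promoters were looked up for the 2 leading called genes of the list that had a promoter sequence, Ifit3 and Oasl2. For Oasl2 none of the searched motifs lay in the 250 bases before the start, and its sequence is not shown. The 150 bases before the start of Ifit3 (chr19:34583379-34583528, plus strand) hold 2 interferon response elements, GAAANNGAA, in capitals and read here on the opposite strand.
Ifit3: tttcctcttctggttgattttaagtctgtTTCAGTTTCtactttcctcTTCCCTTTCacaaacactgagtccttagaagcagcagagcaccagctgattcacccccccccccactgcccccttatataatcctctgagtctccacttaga
Another such element lay further upstream within the 250 bases. The element was found in 11 of 23 list genes with a promoter sequence, 47.8%, against 8.75% of the tested genes.

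**Figure D3:**
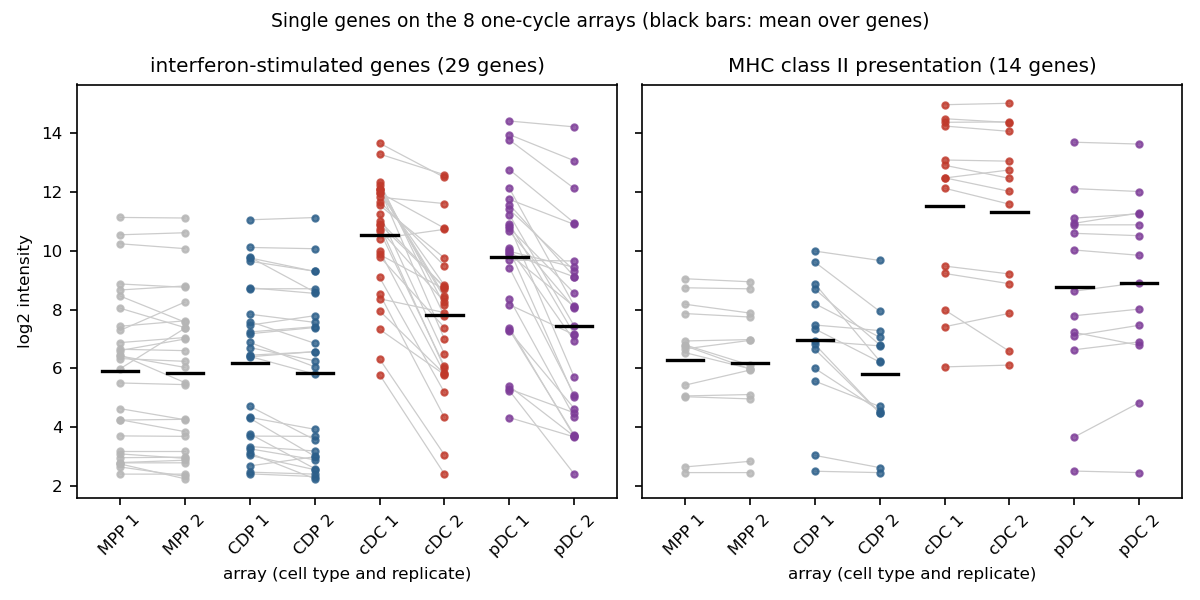
Log2 intensity of each tested gene on the 8 one-cycle arrays, for 29 interferon-stimulated genes (left) and 14 MHC class II genes (right), with grey lines joining the replicates of a cell type and black bars at the mean over genes. The interferon-stimulated genes drop from cDC replicate 1 to replicate 2 and likewise in pDC, whereas the class II genes differ between the CDP arrays and lie level on the cDC arrays.

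Proteins of neutrophil granules and their precursors led the losses. Ctsg (cathepsin G) read 13.64 and 12.92 in CDP and 2.83 and 3.18 in cDC (at least 311-fold lower, adjusted p = 7.3e-06). Prtn3 (proteinase 3) fell from 13.77 and 13.42 to 7.52 and 7.50, Mpo (myeloperoxidase) from 8.60 on both arrays to 2.70 and 2.80, and Ms4a3, a marker of granulocyte and monocyte progenitors, from 10.22 and 11.22 to 2.67 and 2.60. The cDC arrays were close to the floor for 3 of these 4 genes. Of 17 tested neutrophil genes 9 were lower and the other 8 were not called. The median was -4.26, or -2.18 with values under 5 raised to 5. Of these 17, 11 passed the filter on the CDP and cDC arrays alone, 9 of them lower. The CDP arrays differed in this list, with a mean of 8.97 on replicate 1 and 7.47 on replicate 2, and the mature granule genes S100a8 (10.04 and 7.42) and Chil3 (9.36 and 3.76) were much higher on replicate 1. The cDC means were 4.53 and 4.50. Chil3 was not called (adjusted p = 0.063). Without CDP replicate 1 the median was -3.16 with 9 members called lower, and without CDP replicate 2 it was -5.50 with 12.

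Of 20 tested stem and progenitor regulators 10 were lower, 3 were higher and 7 were not called. The 3 higher became 1 without cDC replicate 1, and all 3 calls were lost without CDP replicate 2, while 10 stayed the count of lower members under each omission. Hoxa9, a homeobox factor of early progenitors, dropped from 11.60 and 11.59 to 4.64 and 5.82 (82.4-fold, adjusted p = 9.6e-05) and read 8.45 and 9.23 in pDC. Myb fell 13.5-fold from 11.89 and 12.06 to 8.35 and 8.10, while pDC kept 11.61 and 11.75. Erg fell from 6.44 and 7.06 to 3.35 on both arrays, the level it had in pDC too. Gfi1, a transcriptional repressor needed for granulocytes, fell from 5.94 and 6.38 to 2.34 and 2.32. Egr1, an immediate early gene, was among the 3 that rose, but with 5.28 and 2.99 in CDP and 8.20 and 11.16 in cDC its call was lost without CDP replicate 2 or cDC replicate 2. Cox6a2, a subunit of cytochrome c oxidase, fell from 12.24 and 10.95 to 4.62 and 5.09 (107-fold) and stayed at 12.21 and 11.98 in pDC. Gja1, the gap junction protein connexin 43, fell from 10.42 and 10.84 to 2.62 and 2.56, and Mlkl, the effector of necroptosis, from 10.14 and 9.74 to 4.97 and 3.48.

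Most genes of DNA replication and mitosis were lower in cDC. Of 43 DNA replication genes 39 were lower (25 without cDC replicate 2) and 1 was higher, with a median of -1.41. Their mean was 10.31 and 10.60 on the CDP arrays and 9.26 and 8.89 on the cDC arrays. Orc1, the large subunit of the origin recognition complex, read 6.75 and 7.53 in CDP and 4.31 and 2.77 in cDC (at least 4.41-fold lower, adjusted p = 0.0025), and Chaf1b, a chromatin assembly factor, 7.81 and 7.85 against 5.65 and 4.83. Both genes were under 6 in cDC, whereas the helicase subunit Gins1 was still at 9.32 and 8.63 after a 4.31-fold fall. Dna2, the nuclease that trims replication flaps, was the member that rose, by 0.92, and its call was lost when any single array was left out. Promoters were looked up for Chaf1b and Orc1, the leading lower genes of the list that had a promoter sequence. For Chaf1b none of the searched motifs lay in the 250 bases before the start, and its sequence is not shown. The bases before the start of Orc1 (chr4:108579304-108579453, plus strand) are shown with the E2F motif TTTCGCGC and the Y box in capitals. Both motifs lie on the opposite strand.
Orc1: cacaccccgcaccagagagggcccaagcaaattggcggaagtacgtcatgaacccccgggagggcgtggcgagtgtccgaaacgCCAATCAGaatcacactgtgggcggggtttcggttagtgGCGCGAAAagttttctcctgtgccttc
E2F motifs, searched as TTTCCCGC, TTTGGCGC or TTTCGCGC on both strands, were present in 16 of 35 replication genes with a promoter sequence, 45.7%, against 4.39% of the tested genes. Of 34 genes of mitosis and the spindle 30 were lower and the other 4 were not called, with a median of -1.46. The cell cycle homology region TTTGAA, searched on both strands, was found in 22 of 28 of them, 78.6%, against 14.6%. Cdk6, the kinase of early progenitors, fell 11.9-fold from 12.41 and 12.65 to 9.15 and 8.76, and the cyclin E genes Ccne1 and Ccne2 fell 3.85-fold and 3.24-fold. Cyclin D1 (Ccnd1) rose 6.46-fold, from 10.74 and 10.11 to 13.41 and 12.83. Of the CDK inhibitors, Cdkn1b (p27) rose 2.88-fold and Cdkn1a (p21) fell 6.60-fold. Among survival genes Bcl2 fell 6.41-fold, from 11.15 and 11.50 to 8.60 and 8.69, and Bmf, a pro-apoptotic BH3-only member, rose 6.58-fold.

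Most genes of nucleotide synthesis and of the machinery of translation were lower in cDC. Lower in cDC were 26 of 27 genes of nucleotide and one-carbon synthesis (median -2.27), 31 of 35 of ribosome biogenesis (-1.27), 18 of 19 aminoacyl-tRNA synthetases (-1.54), 33 of 39 mitochondrial ribosomal proteins (-1.06) and 30 of 44 genes of the respiratory chain (-0.75, 19 lower without cDC replicate 2), and the other members were not called. In the serine route, Phgdh, its first enzyme, fell from 12.38 and 12.50 to 7.32 and 6.86 (40.6-fold, adjusted p = 2.1e-05). Psat1 and Psph, the next enzymes, fell 18.1-fold and 10.3-fold, and Shmt2, which passes the serine carbon into mitochondrial folate, 14.0-fold. All 4 enzymes were above 10 on both CDP arrays and under 9 on both cDC arrays. Srm, which makes spermidine and is a known target of MYC, fell 6.18-fold, from 9.60 and 10.07 to 7.27 and 7.14. Myc itself was at 8.39 and 7.83 on the CDP arrays and at 9.51 and 9.14 on the cDC arrays (3.42 and 3.44 for pDC), a rise of 1.22 whose call was lost without CDP replicate 2 or cDC replicate 1.

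Genes of amino acid import and of the ATF4 response included some of the largest falls of all. Of 25 tested members 19 were lower and 1 was higher, with a median of -2.72, or -1.67 with values under 5 raised to 5. Asns (asparagine synthetase) read 13.16 and 12.98 in CDP and 7.35 and 5.74 in cDC (92.2-fold lower, adjusted p = 0.00035). Trib3, a pseudokinase induced by this response, dropped at least 38.4-fold to 2.55 and 2.61, and Cth, which makes cysteine, from 11.07 and 9.82 to 2.28 and 2.25. Slc7a5, the large neutral amino acid transporter, fell 22.2-fold. Atf4, whose protein is controlled mainly by translation, fell 1.98-fold. Side by side, the in vivo CDP arrays, labelled with another kit from less RNA, read 6.07 and 4.26 for Asns, 2.55 and 2.54 for Trib3 and 2.28 and 2.26 for Cth. For the granule and serine genes the in vivo CDP arrays read 12.83 and 12.84 for Ctsg, 14.08 and 13.82 for Prtn3 and 12.95 and 12.60 for Phgdh. No test was made across the kits.

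Other branches of metabolism moved little or unevenly. Of 20 tested glycolysis genes 4 were higher and 3 lower. The brain-type aldolase Aldoc rose 8.33-fold and the glucose transporter Slc2a3 5.55-fold, while Slc16a1, which exports lactate, fell from 11.50 and 11.42 to 7.37 and 6.54 (22.7-fold). Of 25 genes of sterol and fatty acid synthesis 4 were lower, 8 without CDP replicate 1 and 2 without cDC replicate 2, led by the desaturase Scd1 (8.06 and 9.51 against 4.61 and 3.66). Without CDP replicate 2 the list had 2 lower and 2 higher and a median of 0.15 in place of -0.37. In that list CDP replicate 1 lay below replicate 2 for every one of the 25 genes, with a mean of 8.70 against 9.66, and both cDC arrays were near replicate 1, at 8.65 and 8.66. Of 27 chaperones 18 were lower (11 without CDP replicate 2 or cDC replicate 2), among them the mitochondrial Hspa9 (6.02-fold) and Hspd1 (4.08-fold). Of 22 genes of DNA methylation and Polycomb 5 were higher and 9 lower (4 lower without CDP replicate 2 or cDC replicate 2, 3 higher whichever array was left out), with Dnmt1 falling 2.87-fold and Ezh1 rising 2.92-fold.

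**Figure D4:**
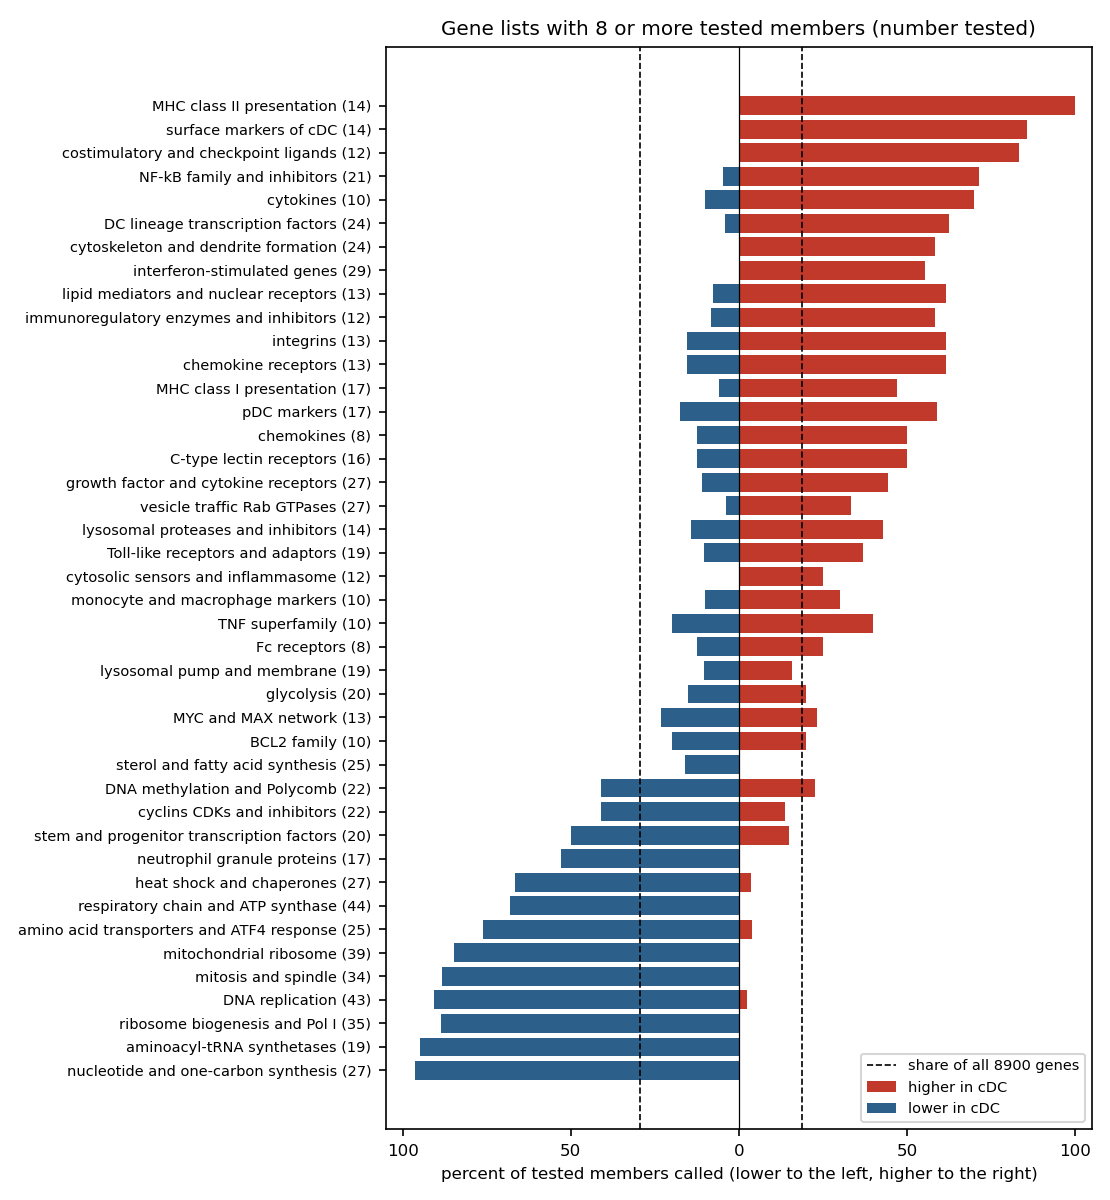
Percent of tested members called higher (red, right) and lower (blue, left) in cDC for each gene list with at least 8 tested members, with dashed lines at the shares of all 8900 genes, 18.7% and 29.3%. MHC class II presentation stands at the top with all 14 higher, and the lists of biosynthesis and cell division stand at the bottom with most members lower.

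Markers of other cells were checked on the same 4 arrays. Low values are common there, since only 8495 of all 18193 genes exceeded 5 on at least 2 of the 4. The share of all genes under 5 on all 4 arrays is not given here. Under 5 on all of them were 14 of 15 markers of T and NK cells, 8 of 12 of B cells, 8 of 9 erythroid, 6 of 10 megakaryocyte, 9 of 12 mast cell and basophil, 6 of 7 eosinophil and 8 of 18 monocyte and macrophage markers, with Cd3e, Cd79a and Pax5 at the floor. Against these, the B cell marker Cd22, an inhibitory lectin, rose from 6.28 and 5.10 to 9.93 and 9.79 (a difference of 4.17 on the log2 scale), and the eosinophil marker Siglecf rose 2.06-fold, a call lost without CDP replicate 2 or cDC replicate 1. Cd68, a lysosomal protein abundant in macrophages, rose 2.82-fold, and of 10 tested monocyte and macrophage markers 3 were higher and 1 lower, or 1 higher without CDP replicate 1, CDP replicate 2 or cDC replicate 2. Among pDC markers 17 were tested, of which 10 rose from CDP to cDC and 3 fell (Cox6a2, Ptprcap and Klk1). Siglech, a pDC surface lectin, had 3.91 and 2.68 on the CDP arrays, 6.94 and 7.62 on the cDC arrays and 13.19 and 13.15 on the pDC arrays, so its cDC level lay far below that of pDC. The macrophage gene C1qb rose from 2.39 on both CDP arrays to 7.44 and 9.12, with 4.30 and 9.45 in pDC, and its call was lost without cDC replicate 2 or either CDP array, and C1qa stayed at the floor on all 4. The basophil and mast cell genes Mcpt8 (2.32 and 6.38) and Cpa3 (2.25 and 5.23) were higher on cDC replicate 2 than on replicate 1, and neither was called. The part of such cells in the results was not tested. The 3' to 5' difference of the actin control probe sets, a measure of RNA integrity and labelling, was 1.23 and 2.11 on the CDP arrays and 0.69 and 0.84 on the cDC arrays, and its part in the results was not tested.

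The change from CDP to cDC was next set beside the difference between cDC and pDC. Called higher in cDC than in pDC were 12.8% of the 8900 genes and called lower 12.7%, and the 2273 calls fell to 1343 and 1474 without cDC replicate 1 and 2 and to 1262 without pDC replicate 1. This contrast shares the cDC arrays with the first, so the values are given side by side only. Of the MHC class II list 9 of 14 were higher in cDC than in pDC, with H2-Eb1 at 11.11 and 11.25 and Ciita at 3.67 and 4.84 in pDC. Of 12 costimulatory ligands 8 were higher and 1 was lower, and of 8 chemokines 6 were higher. DNA replication genes were higher in cDC than in pDC for 22 of 43, with a median of 0.94. Lower in cDC than in pDC were 14 of 17 pDC markers and 9 of 25 genes of sterol and fatty acid synthesis. Spib, an Ets factor of pDC, rose at least 30.4-fold over CDP in cDC, to 10.17 and 9.68, and stood at 12.98 and 13.05 in pDC. The same genes were also read in pDC against CDP, for which the share of all tested genes called is not given here. Of the 1690 genes at least 2-fold lower in cDC than in CDP, 1450 were also lower in pDC than in CDP and 35 higher. Of the 1162 at least 2-fold higher, 728 were also higher in pDC and 77 lower. Lower in pDC than in CDP were 40 of 43 DNA replication, 34 of 34 mitosis and 26 of 27 nucleotide synthesis genes. Higher there were 10 of 14 class II genes. Both comparisons share the CDP arrays, which by itself favours changes in the same direction, so these counts are given side by side only.

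TGF-β1 treatment of amplified CDP for 24 hours, on arrays separate from those above, moved part of these genes the same way. Of 12655 genes tested in that series, 10.8% were higher and 8.43% lower at 24 hours than at 0 hours. The 2438 calls became 988 and 936 without replicate 1 and 2 at 0 hours, 1363 without replicate 1 at 24 hours and 3810 with a block for the replicate number. No untreated culture of 24 hours is among the arrays, so a change with time alone and one with TGF-β1 cannot be told apart. Here replicate 1 at 24 hours had a 3' to 5' difference of 2.78 for Gapdh against 0.03 in replicate 2. Of the 1162 genes at least 2-fold higher in cDC, 1113 were tested, and 436 of them were higher and 39 lower at 24 hours. Of the 1690 genes at least 2-fold lower in cDC, 1683 were tested, and 582 were lower and 59 higher.

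The class II genes followed the cDC direction at 24 hours, with 10 of 14 higher. H2-Aa rose by 3.35 (adjusted p = 0.0022), H2-Eb1 by 2.72 and Ciita by 1.86 on the log2 scale, against 6.21, 8.77 and 6.51 in cDC. Itgae rose by 6.18, against 6.31 in cDC, and Ccr6 by 4.51, Irf4 by 2.72 and Zbtb46 by 2.24. Of the 15 largest rises of cDC 11 were tested and 9 were higher, the exceptions being Naaa and Ccl5. Of the 15 largest falls 9 were lower, with Ctsg falling by 4.38, Hp, a granule protein that binds haemoglobin, by 4.64 and Gja1 by 4.56, while Hoxa9, Cox6a2, Asns and Prtn3 were not called. Ribosome biogenesis was lower for 30 of 36 genes and nucleotide synthesis for 20 of 28. Of the DNA replication genes 17 of 43 were lower, or 29 with that block. Of the 34 mitosis genes limma called none, with 7 at an unadjusted p under 0.05 and 1 higher and 2 lower with the replicate block. Myc fell by 3.20 at 24 hours, the opposite of its rise in cDC, and Kit rose by 1.59. Of 30 interferon-stimulated genes 5 were higher and 1 was lower (11 and 1 with the block). The mean level of the MHC class II list, 8.35 and 8.14 at 0 hours, was 9.72 and 10.10 at 24 hours.

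**Figure D5:**
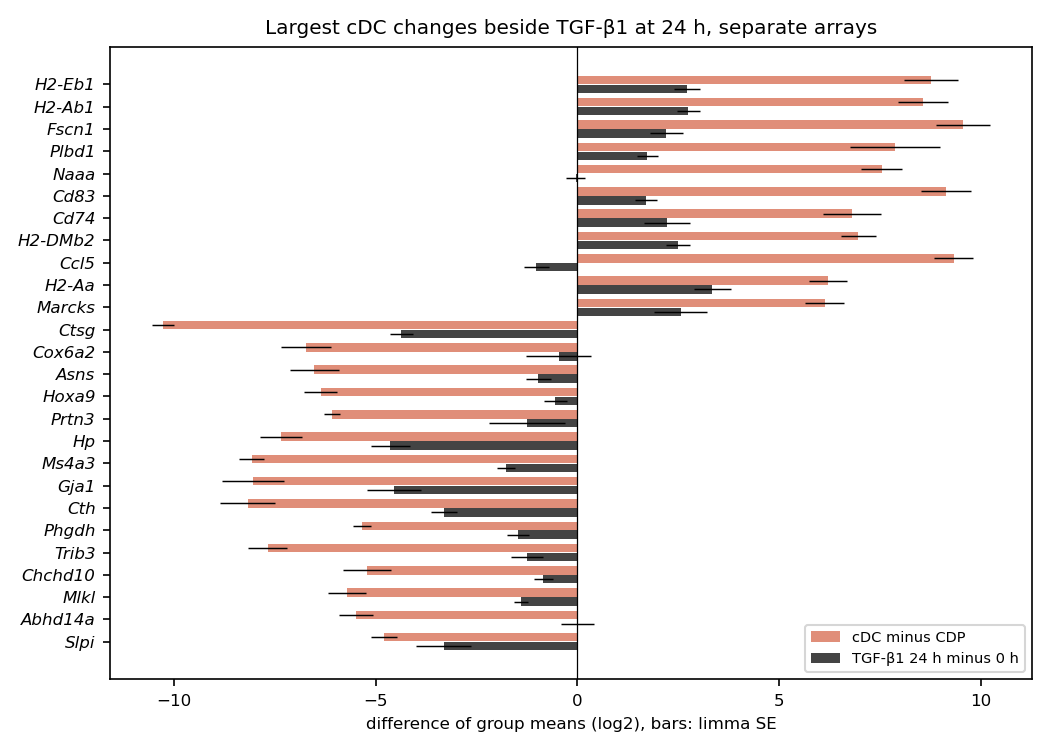
Difference of group means (log2) with limma standard errors for those of the 30 largest cDC changes that were tested on both sets of arrays, cDC minus CDP (light bars) and 24 hours of TGF-β1 minus 0 hours (dark bars). The dark bars point the same way as the light ones for most genes and are shorter, with values near 0 for Naaa and Abhd14a and an opposite sign for Ccl5.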

How the data were processed

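The authors deposited log2 intensities from Affymetrix mouse whole-genome expression arrays, computed with GCRMA per the submitters' processing notes, and no version or annotation is given in the sources used here. Of 45101 probe sets, 34945 have 1 gene symbol, 932 several and 9160 none in the platform annotation used, and 64 are array controls. For a gene with several probe sets, the one of highest mean across all 20 arrays was used. Probe sets with the suffix x, such as those of H2-Aa, H2-DMb2, Marcks, Asns, Phgdh and Trib3, may bind related transcripts. The number of arrays limits the precision.

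One linear model over the 8 one-cycle arrays was fitted with lmFit and eBayes (limma 3.58.1, R 4.3.3), and a separate one over the 10 TGF-β1 arrays, for genes above 5 on at least 2 arrays. P-values were adjusted by Benjamini-Hochberg over all genes tested. The fit was tested on simulated data with 200 changed genes. Folds are 2 to the power of the log2 difference, with lower bounds computed against 5.

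The comparison, the gene lists and the rule for named genes were chosen with earlier results of these data known. The rule takes the 15 largest called rises and falls, the 4 leading called members of each list in either direction, fixed regulators, and all members of the MHC class II and dendritic transcription factor lists. Cd40, Cd80, Cd86, Xcr1, Sirpa, Il6, Tnf, Mpo, S100a8, Chil3, Atf4, Mcpt8, Cpa3, C1qa, Cd3e, Cd79a and Pax5 were chosen after their values were seen. Motifs were searched by exact letters in RefSeq promoter windows. Alternatives covered single arrays left out, the replicate block, filters, scaling, probe set choice and variance model.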

Additional observations from a re-analysis of the deposited data

How the results depend on the processing

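The count of genes called between cDC and CDP, 4269, stayed within 1.5 times under every alternative run. It was 3011 of 18193 genes with no filter on low values, 3796 with a filter at 7, 3723 with the mean of all probe sets, 3536 with only the 4 arrays of the comparison, 4316 with arrays centred on their medians and 4187 after quantile normalization. Leaving out 1 array gave 2938 to 3768. The replicate numbers carry no stated pairing. Deviations from the group means correlated at 0.11 between same-numbered CDP and cDC arrays, 0.58 between MPP and CDP, 0.44 between cDC and pDC and -0.06 to 0.01 otherwise, and with the replicate number as a block 4489 genes were called between cDC and CDP and 2439 between cDC and pDC. Counts between cDC and pDC, 2273, moved to between 1262 and 1600 when an array was left out. The TGF-β1 count at 24 hours, 2438, became 3810 with the replicate block and 936 to 1724 with an array left out, where the lone array is assumed to vary like the others. With no filter on low values, members called higher fell to 6 of 31 interferon-stimulated genes, 7 of 21 of the NF-kB family, 2 of 17 of MHC class I presentation, 4 of 20 C-type lectins, 5 of 17 integrins and 6 of 19 pDC markers. Of 239 called genes among the 250 named, 170 were called under every setting in which they were tested. A gene that failed the filter in a setting was counted neither as kept nor as lost there. No named gene reversed. Calls were lost for 63 with no filter, for 22 and 43 without CDP replicate 1 and 2, and for 33 and 36 without cDC replicate 1 and 2. Their causes were not tested. An exact permutation test of 2 against 2 arrays was not run, since it cannot pass. Signals near the floor of 2.25 limit what can be said of genes listed there.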
